A study of Mus musculus with 14 samples.

Results

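The microRNAs described here are mmu-miR-467a, mmu-miR-467b, mmu-miR-467c, mmu-miR-467d, mmu-miR-467e and mmu-miR-669a (mmu for mouse, left out below), whose genes lie together inside the mouse gene Sfmbt2. They are 6 of the 375 microRNA assays on a TaqMan rodent card, in which each well is a real-time PCR for a known small RNA, and they were taken by assay name. The members were chosen by their measured Ct values over the grafts, GIL and normal arrays, with earlier results of these data known. Differences of the members between groups are therefore given below as descriptions with their errors, and with no test.

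Hearts were transplanted as heterotopic grafts between mice of 8 to 10 weeks, a model in which the second heart is placed beside the recipient's own. Allogeneic grafts were BALB/c hearts in C57BL/6 recipients, recorded by the submitters as rejecting. Syngeneic grafts came from C57BL/6 donors and went to C57BL/6 recipients, and were recorded as not rejecting. There were 3 arrays of allogeneic hearts, 3 of syngeneic hearts (both day 7) and 1 of normal BALB/c hearts. A separate table held 3 arrays of allogeneic graft-infiltrating lymphocytes (GIL), 3 of syngeneic GIL (both day 5) and 1 of normal C57BL/6 blood mononuclear cells (PBMC). Every card was loaded with RNA of 3 animals pooled in equal amounts, so n counts pools and the spread is that between pools. The strain of the heart tissue differs between allogeneic and syngeneic grafts and cannot be told apart from rejection in these samples. In the comparison of syngeneic with normal hearts the strain differs too.

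Sfmbt2 encodes a polycomb-group protein. In mice it is an imprinted gene, expressed from the paternal copy in extraembryonic tissues, and a large intron carries a rodent-specific array of repeated microRNA genes. The miR-297, miR-466, miR-467 and miR-669 families are made from this array, and many of the copies are near-identical. MicroRNAs act by pairing their seed, the first bases at the 5′ end, with messenger RNAs, which lowers the output of those messages. In mice miR-669a has been described in heart and muscle progenitor cells, and miR-467 microRNAs in macrophages and endothelial cells.

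In the RefSeq annotation of GRCm38.p6, Sfmbt2 runs from chr2:10370440-10595253 and holds 72 microRNA genes, which span 51.6 kb. Of these, 29 belong to the miR-669 family, 24 to miR-466, 14 to miR-467 and 5 to miR-297. The 6 assays correspond to 26 of the genes, spread over 36.3 kb at chr2:10473931-10510260. There are 12 copies named for miR-669a, 10 for miR-467a, and 1 each for miR-467b, miR-467c, miR-467d and miR-467e. No gene of the 6 was annotated elsewhere, with 0 found outside the Sfmbt2 span. An assay cannot say which copy its product came from, and signal shared between near-identical members was not measured.

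**Figure D1:**
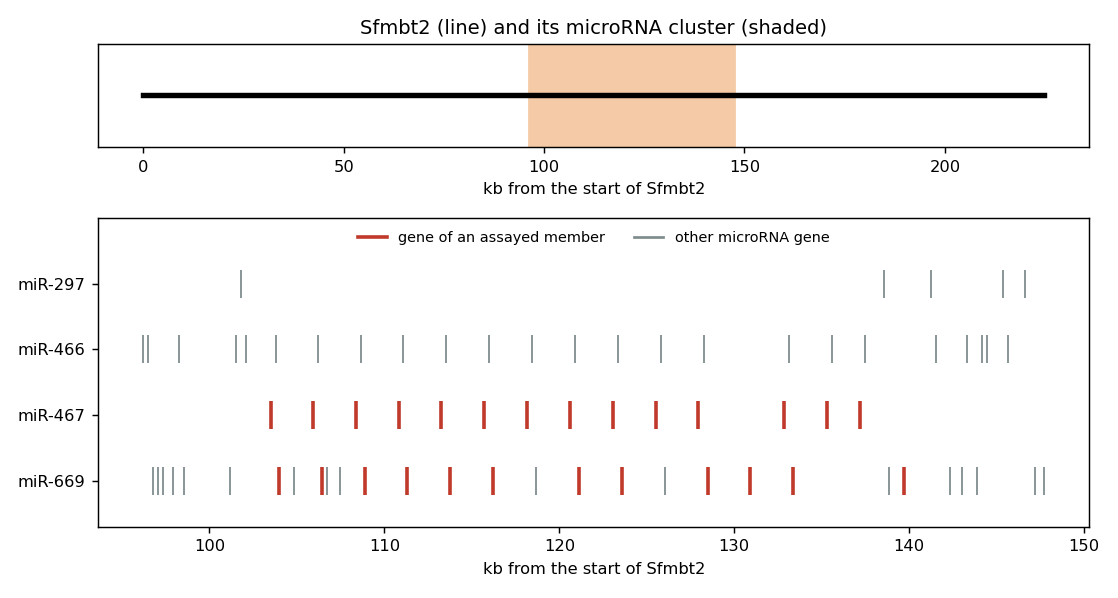
Positions of microRNA genes inside Sfmbt2, in kb from the start of the gene. The upper panel shows the whole gene as a line with the cluster shaded, and the lower panel has 1 tick per gene by family, with the 26 genes of the assayed members in red and the other genes of the 72 in grey.

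Because the members are made from 1 host gene, the promoter of Sfmbt2 is shown with its CG steps in capitals. CG is the site of DNA methylation, which marks imprinted promoters. RefSeq gives Sfmbt2 more than 1 start, and the window printed is that of the first, chr2:10370201-10370500 (plus strand, GRCm38.p6). It holds 9 CG steps at a GC content of 57.7%, and 45.8% of 32851 RefSeq promoter windows of the same length hold as many or more. The window of the downstream start, chr2:10372186-10372485, holds 16, a number reached by 33.0% of windows. Neither methylation nor the host transcript was measured on these cards.
Sfmbt2 promoter: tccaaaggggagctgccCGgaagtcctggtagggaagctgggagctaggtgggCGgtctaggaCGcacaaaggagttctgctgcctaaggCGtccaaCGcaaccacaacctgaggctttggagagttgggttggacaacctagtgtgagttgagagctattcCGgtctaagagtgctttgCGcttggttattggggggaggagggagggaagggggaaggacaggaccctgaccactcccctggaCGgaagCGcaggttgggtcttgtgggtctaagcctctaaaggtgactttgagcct

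Between 228 and 260 microRNA assays gave signal on the heart arrays, and between 161 and 221 on the GIL and PBMC arrays. A well counted as detected below Ct 35, where Ct is the PCR cycle at which signal crosses the threshold. Levels below are on the log2 scale, as the array's mean Ct over its reference assays minus the Ct of the microRNA, so that a level higher by 1 is a doubling of product. Pool 3 of the allogeneic GIL was unlike the rest, detecting 161 assays at a mean reference Ct of 28.0, against 23.2 to 25.8 on the other arrays of its table, and the members' differences of allogeneic GIL are given with and without it. The heart arrays carried their tissue's markers, since the 6 heart-muscle microRNAs (miR-1, miR-133a, miR-133b, miR-208, miR-208b and miR-499) were detected in every heart array. The GIL arrays carried leukocyte miR-142-3p and miR-142-5p in all 6 arrays. They also carried heart-muscle microRNAs in 13 of 18 wells of allogeneic GIL and 12 of 18 of syngeneic GIL, against 2 of 6 on the PBMC array.

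All 6 members were detected in all transplanted hearts and were higher in allogeneic than in syngeneic grafts, by 3.73-fold to 6.02-fold. Members were detected in 18 of 18 wells of allogeneic hearts, 18 of 18 of syngeneic hearts and 3 of 6 of the normal heart array. In allogeneic hearts their Ct values ran from 21.2 for miR-669a in pool 1 to 25.5 for miR-467d in pool 3, against mean reference Ct values of 23.1 to 23.5 on those arrays.

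miR-467a had levels of 1.36, 1.29 and 0.73 in allogeneic hearts, against -0.87, -1.02 and -1.45 in syngeneic hearts and -3.12 in normal hearts. The groups did not overlap, and the difference of allogeneic over syngeneic hearts was 2.24 ± 0.28 (SE, n = 3 pools each), or 4.73-fold. miR-467b had 1.87, 1.35 and 1.52 in allogeneic hearts, against -0.53, 0.03 and -0.47 in syngeneic hearts and -2.21 in normal hearts. Its difference was 1.90 ± 0.26, again with every allogeneic pool above every syngeneic pool.

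miR-467c had 0.62, 0.57 and 0.61 in allogeneic hearts, against -1.94, -1.72 and -2.30 in syngeneic hearts, and was undetermined in normal hearts. The allogeneic pools had an SD of 0.027, and the difference of 2.59 ± 0.23 was 6.02-fold. miR-467d had -1.79, -1.72 and -1.99 in allogeneic hearts, against -3.97, -3.25 and -5.20 in syngeneic hearts, and was undetermined in normal hearts. Syngeneic pool 3 was the lowest of the 6 grafts for this microRNA, and the difference was 2.31 ± 0.49.

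miR-467e had -0.31, -0.84 and 0.31 in allogeneic hearts, against -2.31, -1.97 and -2.31 in syngeneic hearts and -3.12 in normal hearts. The allogeneic pools varied more than the syngeneic ones, with an SD of 0.58 in allogeneic and 0.19 in syngeneic hearts, and the difference was 1.92 ± 0.33. miR-669a had 1.97, 1.50 and 1.64 in allogeneic hearts, against 0.18, -0.48 and -1.32 in syngeneic hearts, and was undetermined in normal hearts. The well of syngeneic pool 3 was marked by the instrument software, and the difference was 2.24 ± 0.40 with that well and 1.86 without any marked well.

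**Figure D2:**
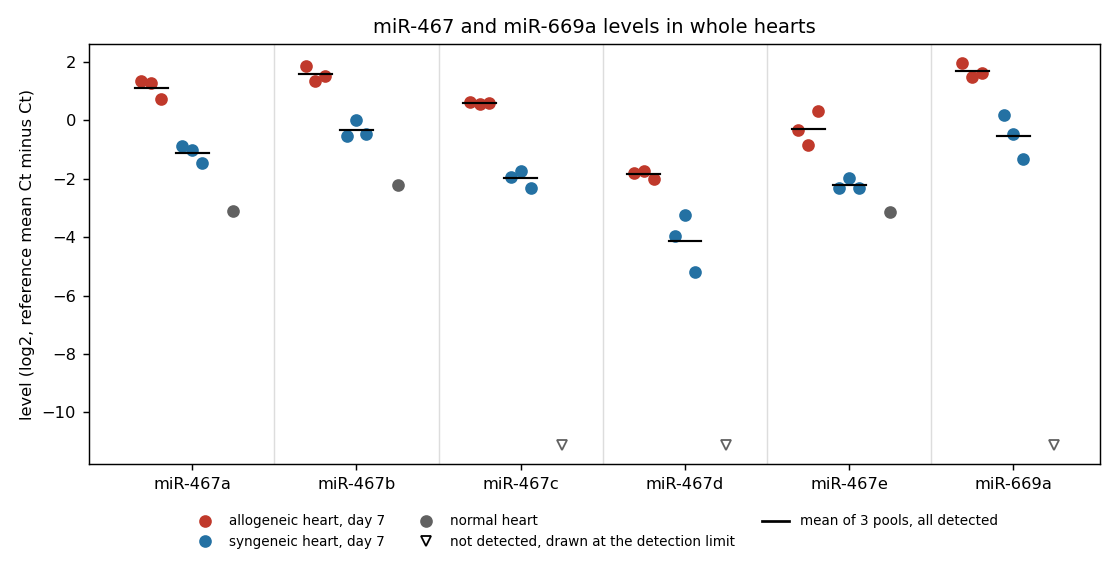
Level of each member (log2, reference mean Ct minus Ct) in allogeneic, syngeneic and normal hearts, 1 point per array of 3 pooled animals, with bars at the mean of 3 pools. The allogeneic points lie above the syngeneic ones for all 6, and miR-467c, miR-467d and miR-669a are drawn at the detection limit on the normal array.

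For miR-467a, miR-467b and miR-467e the order of levels was allogeneic, then syngeneic, then normal hearts. For miR-467c, miR-467d and miR-669a this order holds only if the undetermined normal well, set at the limit, did not fail. Every allogeneic pool above the normal array was seen for 42.3% of all assays tested, and every syngeneic pool above it for 38.8%. The 6 differences of allogeneic over syngeneic hearts had a median of 2.24, against 0.02 over all 238 assays tested. All 6 members had every allogeneic pool above every syngeneic pool, as had 26.5% of all assays tested, and since the members were picked with this contrast known nothing is read from that count. Within the 2 run days that held a pool of each kind, the differences had to be positive, since the groups did not overlap. They ran from 1.78 to 2.57 on the day of allogeneic pool 1 and syngeneic pool 1. On the day of allogeneic pool 3 and syngeneic pool 2 they ran from 1.26 to 2.33. The part of run day was not tested by these pairs.

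**Figure D3:**
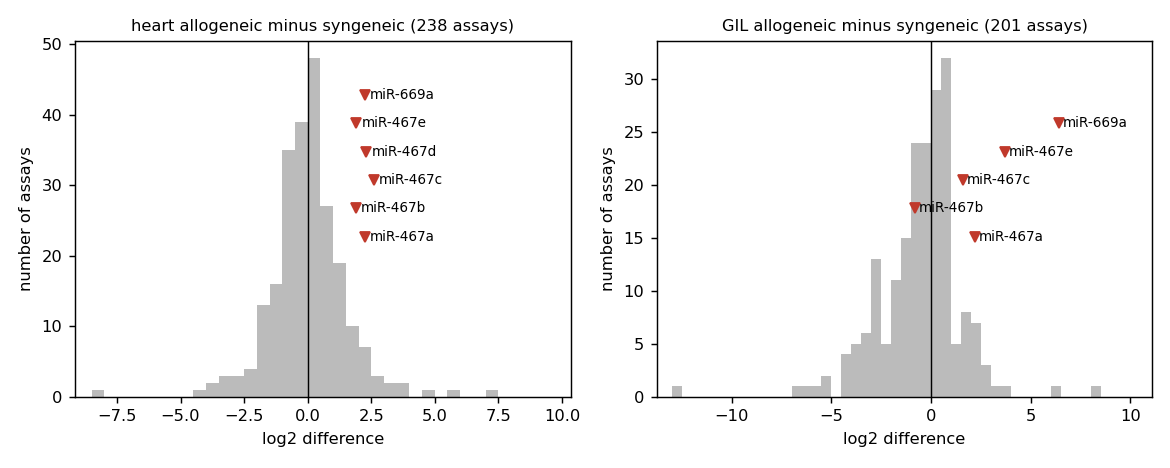
Histograms of log2 differences of allogeneic over syngeneic samples for all assays tested, in hearts (left) and GIL (right), with the members marked by triangles at arbitrary heights. In hearts the 6 members lie between 1.90 and 2.59, and in GIL miR-467b lies below 0 at -0.82.

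Markers of other cell types moved with these differences. In allogeneic against syngeneic hearts limma called 4 of 17 markers higher and 9 lower, beside 17.2% and 15.1% of all assays. Of the 6 heart-muscle markers 5 fell, from -1.48 for miR-208 to -2.29 for miR-208b. Both endothelial markers fell, miR-126-3p by 1.64 and miR-126-5p by 1.30, as did both fibroblast markers, miR-199a-3p by 1.94 and miR-214 by 1.85. The markers that rose were leukocyte miR-142-3p (1.64) and its partner strand miR-142-5p (1.02), lymphocyte miR-342-3p (1.30) and erythroid miR-451 (3.99, or 15.9-fold). Muscle miR-499 (-0.74), lymphocyte miR-150 (-0.49), myeloid miR-223 (0.96) and erythroid miR-486 (-0.16) did not pass. With run day as a fixed block, a fit with 1 residual degree of freedom, 1 assay was called higher and 1 lower of 238 and no marker was called, with miR-451 at 3.65 (adjusted p = 0.0769), miR-142-3p at 1.49 (0.0739) and miR-208b at -2.24 (0.0806). miR-142-5p and miR-342-3p were called in 9 of 21 alternatives each, miR-214 in 11 and miR-133b in 12. The other called markers were called in 19 or 20 of 21.

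The mean level of the 2 leukocyte markers ranged from 3.04 to 3.50 in allogeneic hearts, against 1.57 to 2.19 in syngeneic hearts and -0.74 in normal hearts. That of the 6 muscle markers was 1.58 to 1.96 in allogeneic hearts, 3.01 to 3.51 in syngeneic hearts and 4.61 in normal hearts. The 2 erythroid markers had means of 0.20 to 0.97 in allogeneic hearts, -1.91 to -0.62 in syngeneic hearts and 1.02 in normal hearts. All 17 markers were detected on every heart array. Their part in the members' differences was not tested, and in pooled tissue RNA fewer cells of a type and less RNA per cell cannot be told apart.

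Against the normal heart array, all 6 members were higher in every allogeneic and every syngeneic pool, and the difference was larger for allogeneic hearts. These differences set 3 pools against 1 array, which is assumed to vary like the grafts. No graft array was run on the day of that array, so run day and group cannot be told apart here. The normal array was among the values known when the members were picked, and both comparisons share it.

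In allogeneic over normal hearts, miR-467a was higher by 4.24 ± 0.39 (SE, 19.0-fold), miR-467b by 3.79 ± 0.37 (13.8-fold) and miR-467e by 2.84 ± 0.47 (7.16-fold). For the 3 members undetermined on the normal array only a lower bound can be given, against Ct 35. The bound holds only if those wells, all marked by the instrument software, did not fail. Allogeneic hearts were at least 3412-fold higher for miR-467c, at least 630.2-fold for miR-467d and at least 7301-fold for miR-669a.

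In syngeneic over normal hearts, miR-467a was higher by 2.00 ± 0.39 (4.01-fold) and miR-467b by 1.89 ± 0.37 (3.71-fold). miR-467e was at 0.92 ± 0.47 (1.90-fold), the closest of the 6 to the normal array. On the same condition, the bounds were at least 566.5-fold for miR-467c, at least 127.2-fold for miR-467d and at least 1544-fold for miR-669a. In this comparison the leukocyte arms differed by 2.59 (miR-142-3p) and 2.84 (miR-142-5p), and myeloid miR-223 by 1.50. Fibroblast markers differed by 0.77 and 1.26, and lymphocyte markers by -0.29 and 0.72. The 6 heart-muscle markers ran from -2.45 to -0.10, the endothelial ones were at -1.33 and -1.11, and the erythroid ones at -2.72 and -2.01. The part of these markers was not tested.

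The 6 members divided on the normal heart array. miR-467a, miR-467b and miR-467e were at Ct 27.0, 26.1 and 27.0, and miR-467c, miR-467d and miR-669a were undetermined, although miR-669a was at Ct 21.2 to 21.9 in allogeneic hearts and 22.2 to 25.1 in syngeneic hearts. With 1 array there is no second measurement of these wells, so a failed well cannot be told apart from absence.

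The authors' deposited table gives the same wells as ratios to the normal array. In the authors' deposited table, miR-467a was 26.8 to 31.9 in allogeneic hearts, against 4.20 to 6.99 in syngeneic hearts. For miR-467c the authors' deposited table gives 133350 to 208296 in allogeneic hearts and 19324 to 27785 in syngeneic hearts, computed with the undetermined normal well taken as Ct 40. Ratios for miR-467c, miR-467d and miR-669a in that table therefore depend on that assigned value.

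In GIL the members were less uniform. On the levels used here, every member was lower than in PBMC. Of the 5 that could be compared, 4 were higher in every allogeneic than in every syngeneic pool, beside 24.4% of 201 assays tested. Of these, miR-467e and miR-669a passed the filter through the allogeneic GIL alone, with undetected syngeneic wells at the limit. Their separation is given as a description only. Members were detected in 16 of 18 wells of allogeneic GIL, 12 of 18 of syngeneic GIL and 6 of 6 on the PBMC array.

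miR-467a had levels of -2.08, -2.63 and -3.01 in allogeneic GIL, against -4.39, -4.93 and -4.96 in syngeneic GIL and -0.08 in PBMC. The 3 groups did not overlap, and the difference of allogeneic over syngeneic GIL was 2.19 ± 0.33 (4.55-fold). miR-467c had -0.53, -1.24 and -1.99 in allogeneic GIL, against -2.41, -3.23 and -2.87 in syngeneic GIL and 0.82 in PBMC. Its difference was 1.58 ± 0.44 (3.00-fold), with allogeneic pool 3 the lowest of its group.

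miR-467e had -2.29, -1.83 and -2.05 in allogeneic GIL, against -3.10 and -4.15 in syngeneic pools 1 and 2, no detection in syngeneic pool 3, and -0.25 in PBMC. miR-669a had -0.96, -1.17 and -1.02 in allogeneic GIL, against -3.18 in syngeneic pool 1, no detection in the other syngeneic pools, and 0.82 in PBMC. With undetected wells at the limit the differences were 3.68 ± 1.78 for miR-467e and 6.41 ± 1.79 for miR-669a. Their wide errors come with groups in which some wells stood at the limit.

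miR-467d was detected in allogeneic pools 1 and 2, at -5.10 and -6.02, and in none of the syngeneic pools, against -3.78 in PBMC. It did not pass the filter between the GIL groups, since neither group had it on every array. miR-467b had -1.34 and -2.01 in allogeneic pools 1 and 2 and was undetermined in pool 3, against -1.92, -3.16 and -2.87 in syngeneic GIL and 2.26 in PBMC. On pool 3, miR-467a, miR-467c, miR-467e and miR-669a were detected at Ct 29.0 to 31.0. The groups overlapped for miR-467b, with a difference of -0.82 ± 1.54.

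**Figure D4:**
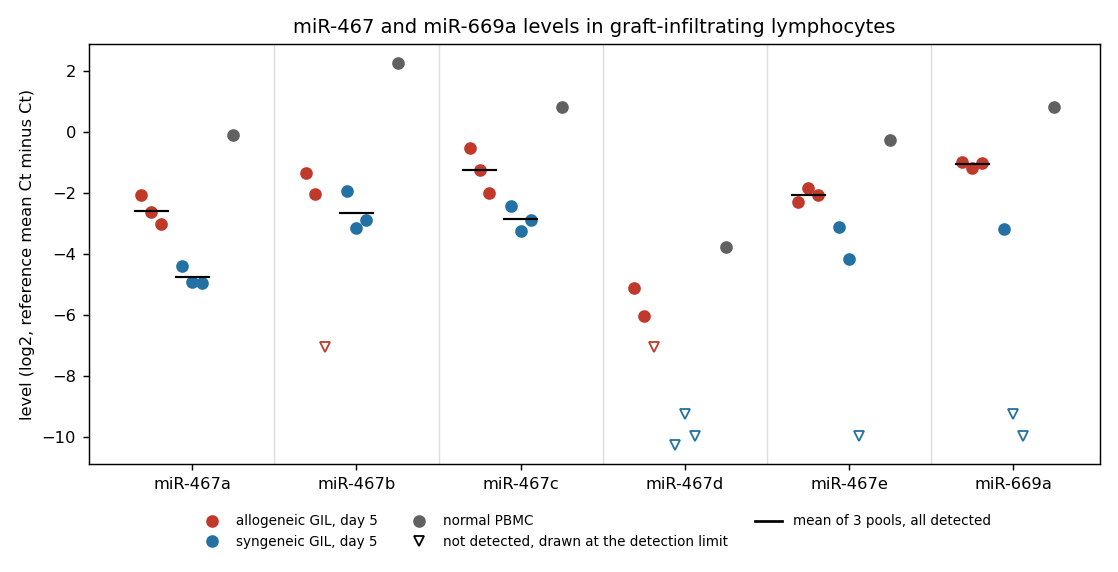
Level of each member (log2, reference mean Ct minus Ct) in allogeneic GIL, syngeneic GIL and normal PBMC, 1 point per array of 3 pooled animals, with open triangles for undetected wells at the detection limit of their array. The PBMC point is the highest for all 6, and miR-467b and miR-467d have an open triangle in the allogeneic group.

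Over the 5 members that passed the filter the median difference of allogeneic over syngeneic GIL was 2.19, against -0.24 over all assays tested. That median takes in wells at the limit for miR-467b, miR-467e and miR-669a. As in hearts, nothing is read from the count without overlap, since the members were picked with these values known. Without allogeneic pool 3, the remaining allogeneic pools lay above every syngeneic pool for 6 of 6 members, beside 32.4% of 210 assays. For miR-467b the lower allogeneic pool was then at -1.47 and the highest syngeneic pool at -1.49, and its difference was 1.07. The differences of the others without that pool were 2.50 for miR-467a, 2.05 for miR-467c, 3.78 for miR-467e and 6.49 for miR-669a. For miR-467d, with every syngeneic well at the limit, it was at least 4.36. All syngeneic GIL arrays were run on a single day on which no allogeneic array was run, so run day and group cannot be told apart in GIL.

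In allogeneic against syngeneic GIL limma called 3 of the 13 markers tested higher and 3 lower, beside 12.4% and 23.9% of all assays. Leukocyte miR-142-3p rose by 1.60 and the muscle markers miR-133a and miR-133b by 1.67 and 1.54. Fibroblast miR-214 fell by 3.45 and miR-199a-3p by 1.38, and endothelial miR-126-3p fell by 1.07. miR-142-3p was called in 17 of 20 alternatives, miR-133a in 14 of 20, miR-133b in 8 of 19, miR-214 in 19 of 19, miR-199a-3p in 9 of 20 and miR-126-3p in 5 of 20. The mean level of the 2 leukocyte markers was 1.28 to 2.27 in allogeneic GIL, 0.16 to 0.69 in syngeneic GIL and 3.49 in PBMC. The mean of the 6 muscle markers was -2.44 to -0.80 in allogeneic GIL, -3.90 to -3.34 in syngeneic GIL and -9.73 in PBMC. The part of these in the members' differences was not tested.

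Against PBMC, the 6 members were below the blood array in every GIL pool on the levels used here. So were 57.5% of assays in allogeneic and 52% in syngeneic GIL. As with the normal hearts, the PBMC array is single, is assumed to vary like the GIL pools and was among the values known when the members were picked. No GIL array was run on its day, so run day and group cannot be told apart here either.

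In allogeneic GIL against PBMC, miR-467a differed by -2.49 ± 0.47 (5.63-fold lower) and miR-467c by -2.07 ± 0.64 (4.21-fold lower). The other four differed by -1.81 to -5.73. Without allogeneic pool 3 the differences were -2.16 for miR-467a, -3.82 for miR-467b, -1.59 for miR-467c, -1.66 for miR-467d, -1.69 for miR-467e and -1.76 for miR-669a. Scaling to snoRNA202, the submitters' reference, brought miR-467a to -1.13 and miR-467c to -0.71. In the authors' deposited table, which uses that reference, allogeneic pool 2 was above PBMC for miR-467e (ratio 1.34) and miR-669a (1.01). All other member ratios in GIL were below that of PBMC. In the same comparison miR-142-3p differed by -1.85, lymphocyte miR-150 by -2.46 and miR-342-3p by -0.51, myeloid miR-223 by -3.32 and erythroid miR-451 by -1.69. Muscle miR-133a differed by 9.22, endothelial miR-126-3p by 4.79 and fibroblast miR-199a-3p by 7.21. In syngeneic GIL against PBMC these were, in the same order, -3.45, -2.97, -1.09, -2.49, -2.35, 7.55, 5.86 and 8.59. The other markers tested had the sign of their cell type in both comparisons. Their part in the members' lower levels was not tested.

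In syngeneic GIL against PBMC, miR-467a differed by -4.68 ± 0.48 (25.6-fold lower) and miR-467c by -3.66 ± 0.65 (12.6-fold lower). miR-467d, undetected in syngeneic GIL, was at least 65.9-fold lower. miR-669a, with 1 of 3 syngeneic pools detected, differed by -8.27 ± 2.59, and miR-467e, with 2 of 3 detected, by -5.49 ± 2.58. miR-467b differed by -4.91 ± 2.22.

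**Figure D5:**
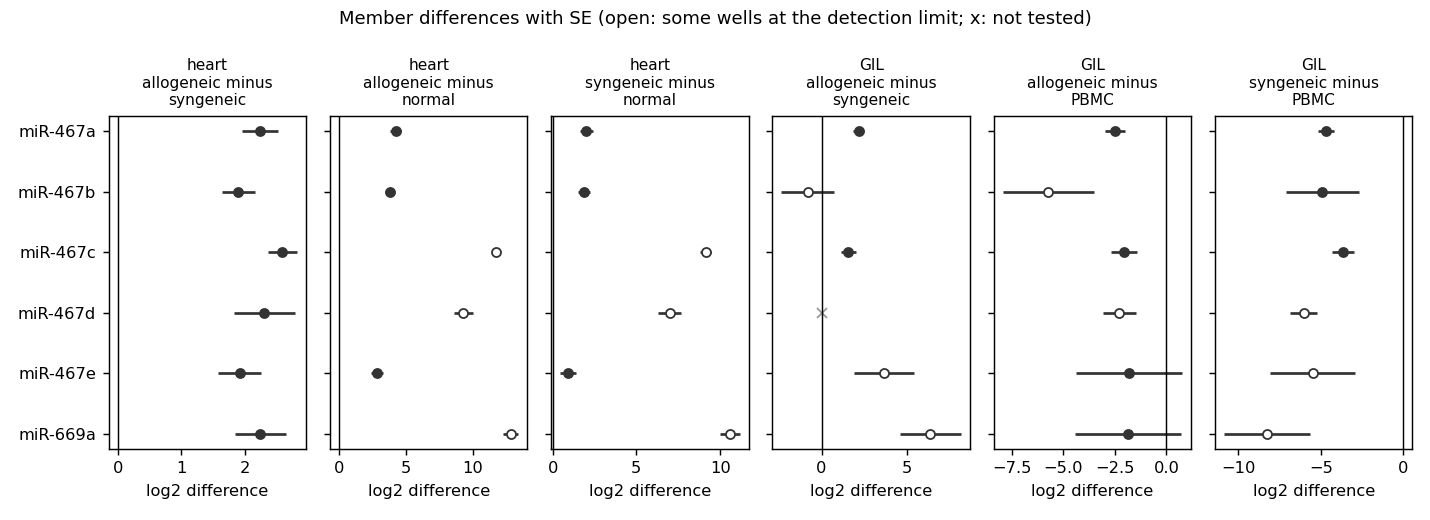
Log2 differences of the members with SE in the 6 contrasts of hearts and GIL, each panel on its own scale with 0 marked. Open points rest on some wells at the detection limit, and the heart contrasts lie to the right of 0 while the contrasts with PBMC lie to the left.

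Correlations between the members are given as a description, since the members were picked with these values known. Over 7 heart arrays the 15 pairwise Pearson correlations of member levels ranged from 0.74 to 0.99, with a median of 0.91. In GIL and PBMC the range was 0.27 to 0.98 with a median of 0.74. The arrays fall into the study's groups, so these values describe group differences as well as spread, and undetected wells enter at the limit. In hearts miR-467c, miR-467d and miR-669a share that limit on the normal array. Nothing is read from the size of the correlations.

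Among 207 other assays detected in every heart array, those most like the mean of miR-467a, miR-467b and miR-467e were miR-7a (r = 0.99), miR-324-3p (r = 0.98) and miR-130b (r = 0.97), over 7 arrays. miR-7a was higher in allogeneic than in syngeneic hearts by 1.98 ± 0.25, miR-324-3p by 1.16 ± 0.24 and miR-130b by 1.47 ± 0.24. Leukocyte miR-142-3p had r = 0.97, with the same order of arrays as the members (Spearman rho = 1). In the GIL table, among 135 assays, the most like miR-467a and miR-467c were miR-30a (r = 0.98), miR-106b (r = 0.97) and miR-29c (r = 0.96).

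The card held 6 other assays with miR-297, miR-466 or miR-468 names, and they gave almost no signal. The RefSeq gene of miR-468 lies outside Sfmbt2, on another chromosome. They were miR-297b-5p, miR-297c, miR-466h, miR-468 and the rat assays miR-466b and miR-466c. None was detected in any of 42 heart wells. Of 42 wells on the GIL and PBMC arrays 2 were detected, miR-297b-5p in PBMC at Ct 29.1 and miR-297c in syngeneic GIL pool 3 at Ct 24.9, both marked by the instrument software. Its single PBMC well put miR-297b-5p past the filter against PBMC, so its differences of -3.41 in allogeneic GIL and -3.93 in syngeneic GIL set wells at the limit against 1 well and are no test.

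A second list held 13 mouse assays whose RefSeq mature sequence (GRCm38.p6) has the seed core AAGUGC starting at base 1, 2 or 3. Most are microRNAs of the miR-17, miR-302 and miR-290 families, which promote cell cycling and early embryonic states, and they were listed as likely seed relatives of miR-467 without computing their likeness to it. The 3 that limma called between the graft groups in hearts or GIL, and miR-302b, are shown 5′ to 3′ with the core in capitals, from chr5 for miR-106b, chrX for miR-20b, chr14 for miR-20a and chr3 for miR-302b.
miR-106b: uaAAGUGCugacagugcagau
miR-20b: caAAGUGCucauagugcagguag
miR-20a: uaAAGUGCuuauagugcagguag
miR-302b: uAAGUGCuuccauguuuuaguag

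In hearts 6 of the 13 were detected on every transplanted heart array, and limma called 1 of them higher in allogeneic than in syngeneic grafts and 0 lower, beside 17.2% and 15.1% of all assays. miR-106b was higher by 1.41 ± 0.41 (adjusted p = 0.0415). The median of the 6 was 0.48, against 0.02 over all 238 assays tested. The most abundant of the list, miR-17, miR-20a and miR-106a, had differences of 0.43, 0.61 and 0.48, and miR-93 and miR-20b of 0.49 and 0.43, none past the threshold. miR-302b, named after its values were seen, was past the limit in allogeneic hearts, at Ct 35.5 to 37.0, against 32.5 to 32.8 in syngeneic hearts. It was at least 4.98-fold lower, a bound with no test, since it passed the filter through the syngeneic hearts alone. The call of miR-106b was lost in 10 of 21 alternatives, among them leaving out allogeneic pool 1, allogeneic pool 2, syngeneic pool 2 or syngeneic pool 3.

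In GIL 6 of the 13 were tested and 3 were called higher in allogeneic than in syngeneic cells, beside 12.4% of all assays, with a median of 0.77. They were miR-20b at 1.44 ± 0.31 (adjusted p = 0.0180), miR-106b at 0.99 ± 0.24 (0.0241) and miR-20a at 0.89 ± 0.27 (0.0478). miR-17 and miR-106a, at 0.64 and 0.57, and miR-93, at 0.23, did not pass. The count was 1 without allogeneic pool 1 or pool 2, 2 without allogeneic pool 3 and 0 without syngeneic pool 2 or pool 3.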

How the data were processed

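MicroRNA levels were measured on TaqMan rodent cards read on a 7900HT instrument, after reverse transcription and preamplification of pooled RNA, per the labels' protocols. The authors exported the values with SDS 2.4, per the file headers. The deposited Ct is a cycle number. The authors also deposited a delta Ct, a log2 value with its sign turned, which is the Ct less that of snoRNA202 with undetermined wells at 40. Their deposited ratio is 2 raised to the negative difference of delta Ct from the normal array. Of the member ratios of at least 0.1, 39 of 39 heart and 25 of 25 GIL matched this formula within 1%. Baseline and threshold settings are not given in the sources used here.

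Levels were recomputed from Ct. Undetermined wells, and those with a Ct of 35 and above, took the value 35, and the mean Ct of the assays detected on all 7 arrays of a table (210 in hearts, 137 in GIL) was the reference. Heart and GIL tables were scaled separately, and when an array was left out the reference was remade from the arrays left. A let-7b well with a deviant sample name was left out. An assay was tested when detected on every array of at least 1 group compared. The model of group means was limma's (version 3.58.1, R 4.3.3, lmFit and eBayes, two-sided), with Benjamini-Hochberg adjustment over all assays tested and a threshold of 0.05. The fit was tested on simulated data. Tables were handled with Python 3.11.15 and pandas 2.3.3. Arrays give no counts, so their number limits the precision, and p-values measure only the spread between these pools, since the labels do not say whether they came from separate experiments.

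The 6 members and the lists were chosen with earlier results of these data known. The contrasts with the normal arrays had been planned as tests of the members and are given without one, because those Ct values were among the results known. Named assays were the members, the other assays with miR-297, miR-466 or miR-468 names, the 6 most abundant seed relatives, the 3 assays most like the members in each table and the cell type markers. RefSeq mature sequences of the members were not used here, so sequence likeness among them was not analysed.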

Additional observations from a re-analysis of the deposited data

Results flagged for a closer look

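On the levels used here, all 6 members differed in direction between the 2 tables. In every graft pool of hearts the member was above the normal heart array, and in every GIL pool it was below the PBMC array. The authors' deposited ratios, scaled to snoRNA202, put allogeneic GIL pool 2 above PBMC for miR-467e (1.34) and miR-669a (1.01). This difference between hearts and GIL was not tested, and the normal arrays of the tables come from different tissues and strains. In allogeneic samples the difference from normal hearts was 4.24 and that from PBMC -2.49 for miR-467a. For miR-467b they were 3.79 and -5.73 (-3.82 without allogeneic GIL pool 3), and for miR-467e 2.84 and -1.81. The remaining members had an undetermined normal heart well, and their bounds hold only if that well did not fail. They were at least 11.74 and -2.07 for miR-467c, at least 9.3 and -2.28 for miR-467d, and at least 12.83 and -1.87 for miR-669a. In syngeneic samples they were 2.00 and -4.68 for miR-467a, 1.89 and -4.91 for miR-467b, and 0.92 and -5.49 for miR-467e. For the other members they were at least 9.15 and -3.66 for miR-467c, at least 10.59 and -8.27 for miR-669a, and at least 6.99 and, with no syngeneic GIL pool detected, -6.04 or lower for miR-467d.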

How the results depend on the processing

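No member difference between groups that did not overlap turned its sign (0 reversed). Of 681 alternatives to the 36 member differences, 76 moved by more than the spread between replicates. The other 605 include filters, which cannot move a difference, so nothing is read from that count. The difference of miR-467b between GIL groups ranged from -2.45 to 1.07 and took either sign within its spread. The median member difference of allogeneic over syngeneic hearts (2.24) was 1.86 to 2.38 when each replicate was left out, the lowest without syngeneic replicate 3. In GIL the median over all 6 members, 2.94 with undetected wells at the limit, lay between 1.84 and 3.83 over the alternatives. In syngeneic over normal hearts the median (4.50) was 4.94 with snoRNA202, 3.02, 6.00 and 7.00 with limits at Ct 32, 38 and 40, and 1.89 over members detected on all 7 arrays. In allogeneic over normal hearts (6.77) it was 7.37, 5.28, 8.29, 9.29 and 3.79 under the same settings. The limit sets the bound of the 3 undetermined members, and the last setting leaves them out. The other assays with miR-297, miR-466 or miR-468 names (0 calls) gave 1 call in syngeneic GIL against PBMC with MammU6, quantile normalization, Ct 38 or Ct 40, and 1 in allogeneic GIL with the last 3, and 0 to 1 when each replicate was left out. Those calls set wells at the limit against 1 PBMC well. Of the seed relatives in hearts, the 1 call higher was 0 with MammU6, the median reference, quantile normalization, no filter or run day as a fixed block. It was 0 to 1 when each replicate was left out. The 1 call lower, that of miR-302b at the limit, was 0 with quantile normalization, Ct 32, all 7 arrays or run day as a fixed block. With run day as a random block there was still 1 call higher and 1 lower. In GIL the 3 calls higher were 5 with snoRNA202 or the median reference, 1 with both snoRNAs, 0 with no filter and 0 to 2 when each replicate was left out. Scaling moved the median of all assays in allogeneic over syngeneic GIL to between -0.02 and 0.65, against -0.24, and in allogeneic GIL over PBMC to between -1.47 and 0.17, against -1.19. Assays called in allogeneic over syngeneic hearts (41 higher, 36 lower) were 18 higher and 16 lower with MammU6, 42 higher and 23 lower with snoRNA202, and 24 higher and 56 lower with the median reference. A fixed run-day block gave 1 and 1 and leaves 1 residual degree of freedom. The counts were 25 and 21 with the replicate block, 21 and 21 with no filter, 22 and 21 without allogeneic pool 1, 24 and 18 without syngeneic pool 2, and 22 and 23 without syngeneic pool 3. In GIL (25 higher, 48 lower) snoRNA202 gave 38 higher and 10 lower, no filter 12 and 23, the replicate block 17 and 38, and leaving out syngeneic pool 2 or pool 3 gave 13 and 27 or 14 and 26. Where no construction is named, the cause was not tested. Same-numbered arrays had correlations of deviations of -0.29 to 0.12 in hearts and -0.16 to 0.23 in GIL. The same-numbered array was the best match for no allogeneic heart pool, but was so for allogeneic GIL pools 1 and 2. The main fit used no pairing. A replicate block cannot move a member difference, since both groups hold the same numbers. Its medians are 2.24 in hearts and 2.94 in GIL by construction. With that block the calls of seed relatives higher were 0 in hearts and 1 in GIL. Run day could not be fitted as a fixed block in GIL or against the normal arrays, and the sequence comparison of the members was not run. Signal near the limit of detection bounds miR-467d, miR-467e and miR-669a in syngeneic GIL.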
